A study of Mus musculus with 8 samples.

Results

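The 37 genes described here encode enzymes of glycolysis and of the tricarboxylic acid (TCA) cycle, the transporters that carry glucose in and lactate out, the regulators of these steps, and Acod1, the enzyme that makes itaconate. They were chosen by name, from their known roles, with earlier results of these data known. All 37 were among the 37018 genes and transcripts that the arrays measured. They were read in peritoneal macrophages of C57BL/6 mice, as log2 intensities of an Agilent 2-colour array after background correction and normalization. The KO cells came from LysMCre-fur(fl/fl) mice, labelled FURIN KO, and the WT cells from littermates without the deletion. Cells of each genotype were left untreated or received LPS, a component of the bacterial outer membrane that is sensed by Toll-like receptor 4, at 1 μg/ml for 1, 4 or 24 h. Each genotype and time had 2 samples, which the submitters call biological replicates. A KO and a WT sample of the same time shared each of the 8 arrays, and the KO sample carried Cy5 in replicate 1 but Cy3 in replicate 2, so that the replicate number and the dye orientation were the same factor. The animals' ages are not given in the sources used here for these samples.

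Several points limit what the groups stand for. LysM-Cre is active in myeloid cells, among them neutrophils and monocytes, so the deletion is not expected in macrophages alone. The cells were resident cells washed from the peritoneal cavity and cultured, with nonadherent cells removed, before LPS was added. The untreated cells were not matched in time to each LPS group, and the growth protocol in the labels names 4 h of LPS for every sample, so the times were taken from the titles of the samples. Furin itself differed between KO and WT by -0.59 and -0.85 in untreated cells, by -0.56 and -0.55 at 1 h, by 0.0012 and 0.33 at 4 h, and by -0.59 and -0.69 at 24 h (log2 KO/WT on the 2 arrays of a time). The Furin signal was thus not lower in the samples labelled KO at 4 h, and whether its probe lies in the deleted part is not given in the sources used here. KO at 4 h therefore means the samples labelled KO. Lyz2, the gene into which the Cre was placed, was lower in KO on all 8 arrays, by -1.04 and -1.13 at 4 h (log2 KO/WT). All arrays lay on one slide, untreated and 1 h arrays in 1 row and 4 h and 24 h arrays in the other. Differences of 4 h or 24 h from untreated cells thus also span the rows, whereas the difference between 24 h and 4 h lies within a row.

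In glycolysis, glucose is split to pyruvate in the cytosol, with a net gain of ATP. Pyruvate is either reduced to lactate or enters mitochondria, where the TCA cycle oxidizes it. Macrophages that meet LPS are known to take up more glucose and release more lactate, and their TCA cycle is known to be interrupted at isocitrate dehydrogenase and succinate dehydrogenase. Acod1 turns cis-aconitate, made from citrate, into itaconate, which inhibits succinate dehydrogenase. Hif1a encodes a subunit of hypoxia-inducible factor, which drives many glycolytic genes.

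The upstream sequences of 6 genes with large changes after LPS are printed below, 3 that rose at 4 h (Acod1, Hk2 and Pfkp) and 3 that fell (Idh1, Idh2 and Ldhb). Each holds the 250 bases before the transcription start in RefSeq on build GRCm38.p6, 5′ to 3′ on the strand of the gene. Capitals mark ACGTG and GCGTG, the core letters that hypoxia-inducible factor is known to bind, or their reverse complements, searched on both strands. Of 32817 upstream sequences of this length listed, 16.6% held ACGTG, 28.1% held GCGTG and 38.6% held either. Of the 35 members listed, 15 held ACGTG, 22 held GCGTG and 31 held either at any of their starts. These counts take all starts of a gene together, so they are not directly comparable with the shares per sequence. ACGTG also lies within the E-box that other factors bind.
Acod1 (chr14:103046762-103047011, plus strand): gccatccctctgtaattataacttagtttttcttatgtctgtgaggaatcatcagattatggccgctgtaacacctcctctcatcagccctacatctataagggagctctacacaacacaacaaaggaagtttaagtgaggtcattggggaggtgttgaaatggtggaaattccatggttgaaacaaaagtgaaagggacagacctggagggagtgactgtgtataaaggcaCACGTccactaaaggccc
Hk2 (chr6:82774455-82774704, minus strand): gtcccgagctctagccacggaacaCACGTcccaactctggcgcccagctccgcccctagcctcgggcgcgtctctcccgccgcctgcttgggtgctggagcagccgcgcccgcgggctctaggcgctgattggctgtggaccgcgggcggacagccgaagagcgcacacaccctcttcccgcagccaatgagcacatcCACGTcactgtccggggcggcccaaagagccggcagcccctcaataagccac
Pfkp (chr13:6648772-6649021, minus strand): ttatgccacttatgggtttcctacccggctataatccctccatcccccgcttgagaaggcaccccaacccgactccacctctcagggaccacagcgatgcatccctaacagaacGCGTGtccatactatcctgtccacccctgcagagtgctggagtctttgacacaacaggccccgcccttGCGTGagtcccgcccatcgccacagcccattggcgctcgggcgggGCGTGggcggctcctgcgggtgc
Idh1 (chr1:65186480-65186729, minus strand): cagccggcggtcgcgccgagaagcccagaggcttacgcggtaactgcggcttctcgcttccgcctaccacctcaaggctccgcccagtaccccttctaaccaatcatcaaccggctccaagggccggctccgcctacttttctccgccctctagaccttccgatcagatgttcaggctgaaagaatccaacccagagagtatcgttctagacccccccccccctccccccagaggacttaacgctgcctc
Idh2 (chr7:80115351-80115600, minus strand): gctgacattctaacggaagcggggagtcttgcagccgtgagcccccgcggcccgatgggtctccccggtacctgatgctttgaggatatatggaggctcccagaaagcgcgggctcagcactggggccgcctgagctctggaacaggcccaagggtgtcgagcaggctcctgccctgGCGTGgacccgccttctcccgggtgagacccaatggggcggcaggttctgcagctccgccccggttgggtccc
Ldhb (chr6:142507958-142508207, minus strand): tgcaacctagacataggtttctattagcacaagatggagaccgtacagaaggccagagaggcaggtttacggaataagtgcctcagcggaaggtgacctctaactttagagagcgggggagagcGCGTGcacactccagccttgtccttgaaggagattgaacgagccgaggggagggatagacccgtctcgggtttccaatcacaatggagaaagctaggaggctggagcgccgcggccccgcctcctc
Acod1 holds 1 ACGTG, 18 bases before the start, and Hk2 holds 2, at 226 and 52 bases. Pfkp holds GCGTG at 136, 68 and 23 bases, Idh2 at 73 and Ldhb at 126, and neither motif is in the Idh1 window shown, while a second Idh1 start in RefSeq has GCGTG at 134 bases. The letters therefore occur in genes that rose and in genes that fell. A match is only a match of letters and does not show that a factor binds.

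All 37 genes passed the filter on low intensity, and 36 of them were well above background in all 16 channels. Aco1 was well above background in 12 of 16. Under LPS, 18 of the 37 genes fell by 4 h and rose again by 24 h (17.7% of the features well above background throughout did so in WT), while in WT 8 were lower at both times, where 21.5% of those features were, and 8 were higher at both, where 14.9% were. At 4 h, in WT, most of its genes were lower than in untreated cells, whereas Acod1, the glucose transporters, Hk2, Pfkp and Pfkfb3 were higher. By 24 h, 11 of the 14 glycolytic enzyme genes were above untreated cells, and Idh1, Idh2 and 3 of the 4 succinate dehydrogenase genes were below them in WT, where 23.9% of these features rose and 31.1% fell. KO followed the same order of events, and no member passed the test between the genotypes, though 8 passed for the mean over the times with the replicate number as a block and 1 under 3 other settings given below.

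Changes after LPS were tested with limma's separate-channel fit, and a gene is said to rise or fall where its Benjamini-Hochberg adjusted p was under 0.05 over all genes tested. These are bulk samples, so fewer cells of a type and less RNA per cell cannot be told apart, and the p-values measure only the spread between replicate samples, pooled over all groups in the fit. In WT, 3 members rose and 0 fell at 1 h, where 3.38% of all 36927 features rose and 5.12% fell, a count that was 9 in all with the replicate number as a block. At 4 h, 9 members rose and 23 fell, against 15.5% and 19.3% of all features. At 24 h, 17 rose and 9 fell, against 13.5% and 17% of all features. From 4 h to 24 h, 20 rose and 6 fell, against 15.1% and 14.6%. The share of members that fell at 4 h and the share that rose afterwards were therefore both well above the background. Because the members are abundant transcripts, the 16434 features well above background in all 16 channels are the closer comparison, and of these 28.7% rose and 33.9% fell at 4 h in WT, 23.9% rose and 31.1% fell at 24 h, and 26.2% rose and 28.3% fell from 4 h to 24 h. Against these shares, the 9 members that rose at 4 h and the 9 that fell at 24 h were near the background, and the 23 that fell at 4 h, the 17 that rose at 24 h and the 20 that rose from 4 h to 24 h were more.

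KO samples gave nearly the same counts. At 1 h, 2 members rose and 2 fell (3.09% and 4.35% of all features), at 4 h 9 rose and 24 fell (16.2% and 19.7%), at 24 h 16 rose and 8 fell (12.7% and 15.9%), and from 4 h to 24 h 21 rose and 5 fell (15.6% and 15.1%). The median change of the 37 genes from untreated cells was -0.63 in WT and -0.70 in KO at 4 h, and 0.10 and 0.15 at 24 h (log2). The median over all features lay between -0.02 and 0.00 at these times. With loess within arrays alone, and nothing between arrays, the 24 h counts shifted to 18 up and 4 down in WT and to 17 up and 3 down in KO. The falls that no longer passed in WT were those of Gpi1, Sdha, Sdhb, Sdhd and Mdh1, so the falls at 24 h depended on the scaling between arrays more than the rises did.

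**Figure D1:**
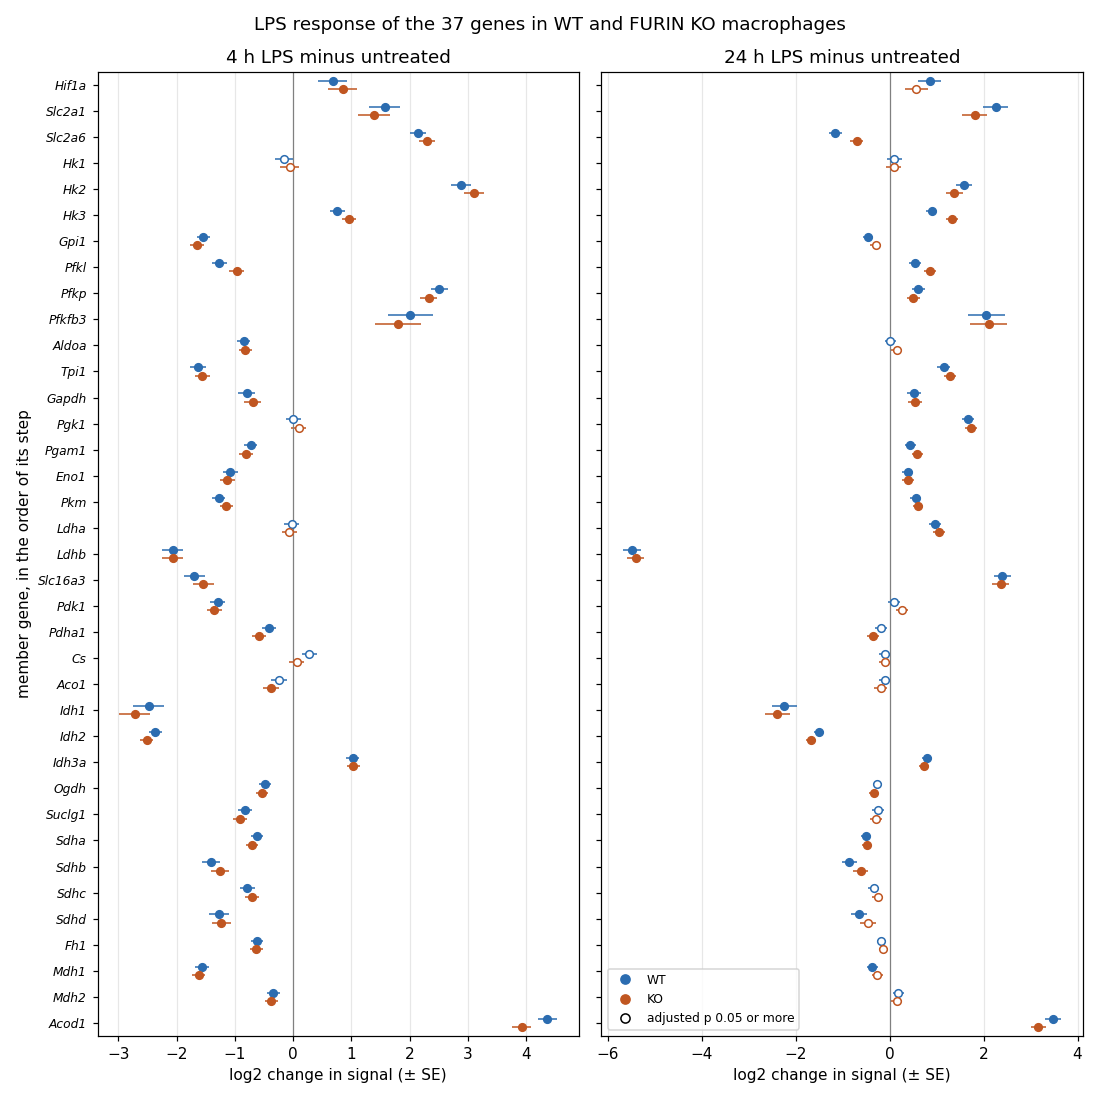
Log2 change in signal from untreated cells (x axis) of each of the 37 genes (y axis, in the order of their steps) after 4 h (left) and 24 h (right) of LPS, blue for WT and orange for KO. Bars are the standard error (n = 2 samples per group), and open symbols are genes whose adjusted p was 0.05 or more. In WT, 23 genes lie left of 0 with a filled symbol at 4 h and 17 lie right of 0 with one at 24 h.

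Hif1a rose moderately. In WT its log2 intensity was 10.89 and 10.52 in untreated cells, 11.59 and 11.13 after 1 h, 11.62 and 11.14 after 4 h, and 11.70 and 11.41 after 24 h. Both WT samples with LPS lay above both untreated samples at each time, and replicate 1 was the higher of the pair throughout. The rise was 0.68 ± 0.25 at 4 h (log2, SE, n = 2, 1.6-fold, adjusted p = 0.0482) and 0.85 at 24 h (adjusted p = 0.0166). In KO it was 10.75 and 11.28 in untreated cells, 11.25 and 11.73 after 1 h, 11.81 and 11.92 after 4 h, and 11.41 and 11.75 after 24 h, with a rise of 0.85 at 4 h (adjusted p = 0.0143) and a value of 0.57 at 24 h that did not pass (adjusted p = 0.115). In KO replicate 2 was the higher sample at each time, which is the Cy3 channel, as replicate 1 is in WT. The 4 h value was 0.36 in WT and 0.59 in KO, past no threshold, with loess alone, and the WT rise at 4 h also no longer passed without untreated replicate 2 (0.50), without 4 h replicate 1 (0.44), or without either 24 h array (0.68).

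The glucose transporters rose early and then diverged. Slc2a1, which encodes GLUT1, the main glucose carrier of many cells, had WT log2 intensities of 10.73 and 11.38 in untreated cells, 11.70 and 12.38 after 1 h, 12.48 and 12.78 after 4 h, and 13.18 and 13.44 after 24 h. Every later pair lay above the untreated pair, and the rise was 1.98-fold at 1 h (adjusted p = 0.0379), 2.97-fold at 4 h and 4.78-fold at 24 h (adjusted p = 1.69e-05). In KO the values were 11.87 and 11.42, 12.63 and 12.37, 13.30 and 12.77, and 13.41 and 13.49 in the same order. The KO rise was 2.62-fold at 4 h and 3.5-fold at 24 h (adjusted p = 0.000135), and the 1 h value of 0.86 did not pass (adjusted p = 0.0808). The WT rise at 1 h no longer passed without untreated replicate 1 (0.66), without 1 h replicate 2 (0.64), or without either 24 h array (0.99). Slc2a6, a transporter of the GLUT6 type, had WT values of 14.45 and 14.35, 15.62 and 15.43, 16.66 and 16.42, and 13.09 and 13.40. It rose 4.4-fold by 4 h (adjusted p = 3.57e-08) and then fell below untreated cells, 2.23-fold lower at 24 h (adjusted p = 2.03e-05), without overlap between the samples of these groups. In KO it was 14.15 and 14.04, 15.16 and 15.20, 16.38 and 16.39, and 13.57 and 13.22, a 4.9-fold rise at 4 h and a 1.63-fold fall at 24 h (adjusted p = 0.00155), which did not pass with loess alone. Both transporters were higher at 4 h, and at 24 h only Slc2a1 of the pair was above untreated cells, in both genotypes.

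Among the glycolytic enzymes, those that rose at 4 h were Hk2, Hk3, Pfkp and Pfkfb3, whereas Hk1 and Pfkl, of the same steps, did not rise. Hk2, the inducible hexokinase that phosphorylates glucose, had WT values of 9.50 and 9.91, 10.20 and 10.05, 12.74 and 12.44, and 11.34 and 11.25, and KO values of 10.27 and 9.80, 10.46 and 10.25, 13.11 and 13.15, and 11.40 and 11.42. The 4 h and 24 h samples did not overlap with the untreated ones in either genotype. Hk2 rose 7.37-fold in WT at 4 h (2.88 ± 0.17 log2, SE, n = 2, adjusted p = 1.24e-08) and 8.56-fold in KO (adjusted p = 6.34e-09), and was still 3.01-fold and 2.6-fold higher at 24 h. Pfkp, the platelet form of phosphofructokinase, which makes fructose 1,6-bisphosphate, was at 10.45 and 10.47, 10.56 and 10.58, 13.08 and 12.85, and 11.13 and 11.00 in WT, and at 10.43 and 10.78, 10.58 and 10.80, 12.91 and 12.95, and 10.94 and 11.28 in KO. The 4 h peak stood apart from all other times, 5.68-fold above untreated cells in WT (adjusted p = 9.15e-09) and 5.02-fold in KO. At 24 h Pfkp was 1.53-fold above untreated cells in WT (adjusted p = 0.00445). A second, dimmer Pfkp probe gave 0.50 at 4 h and -0.08 at 24 h in WT (log2), and 0.52 and 0.01 in KO. The 24 h rise was thus not seen on that probe. Pfkfb3, whose product raises fructose 2,6-bisphosphate and so activates phosphofructokinase, was at 11.55 and 11.59, 10.95 and 10.96, 14.24 and 12.92, and 14.05 and 13.19 in WT, and at 11.87 and 11.80, 11.06 and 11.19, 13.21 and 14.05, and 13.70 and 14.19 in KO. The WT replicates at 4 h lay over 1 log2 unit apart, and the Cy3 channel was the brighter one in both genotypes at 4 h and 24 h. Pfkfb3 rose 4.03-fold at 4 h in WT (adjusted p = 0.000888) and 4.15-fold at 24 h. Hk3, a hexokinase of blood cells, rose by 0.76 and 0.89 in WT at 4 h and 24 h and by 0.96 and 1.33 in KO. Hk1, the housekeeping hexokinase, passed at no time in either genotype, with values from -0.32 to 0.10, and its second probe gave 0.46 at 4 h in WT.

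**Figure D2:**
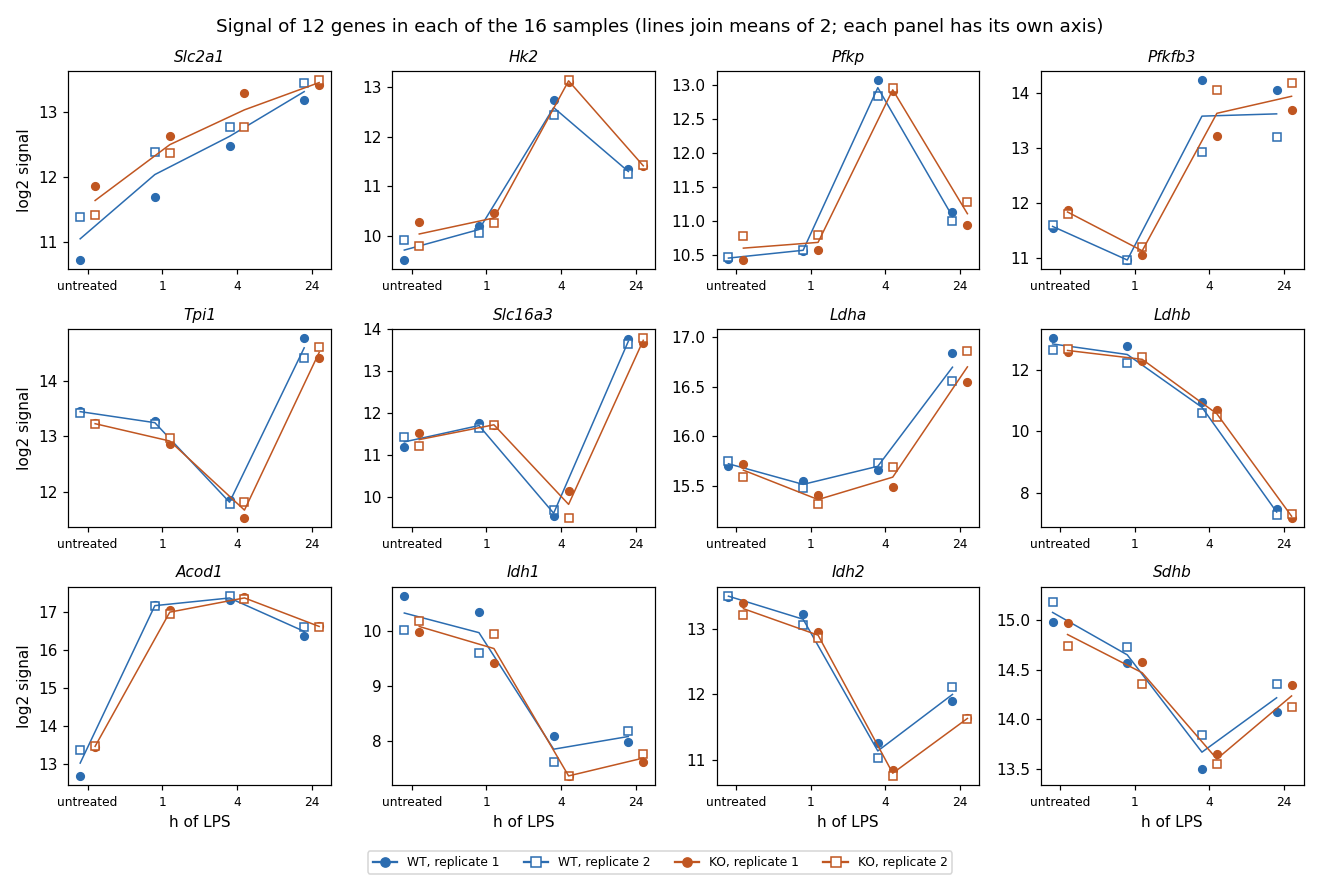
Log2 signal (y axis, its own range in each panel) of 12 of the genes in each of the 16 samples, by hours of LPS (x axis, not to scale), with replicate 1 as filled and replicate 2 as open symbols and lines through the means of 2. Acod1 is highest at 1 h and 4 h, Hk2 and Pfkp peak at 4 h, and Slc16a3 is lowest at 4 h and highest at 24 h.

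The other enzymes of upper glycolysis, Gpi1, Pfkl, Aldoa and Tpi1, all fell at 4 h in both genotypes and rose again by 24 h. Tpi1, which interconverts the 3-carbon sugar phosphates, was at 13.46 and 13.43, 13.27 and 13.22, 11.84 and 11.78, and 14.78 and 14.41 in WT. Its 4 h samples were the lowest and its 24 h samples the highest, with no overlap. It fell 3.1-fold at 4 h (adjusted p = 2.77e-07) and then rose 6.88-fold to 24 h (adjusted p = 6.73e-09). In KO the values were 13.23 and 13.22, 12.85 and 12.98, 11.52 and 11.81, and 14.41 and 14.61, with a 2.94-fold fall and a 7.17-fold rise. In WT, Gpi1 (glucose-6-phosphate isomerase) fell by 1.54, Pfkl (the liver form of phosphofructokinase) by 1.26 and Aldoa (aldolase) by 0.85 at 4 h on the log2 scale. Pfkl thus moved opposite to Pfkp, and at 24 h Pfkl was 0.54 above untreated cells in WT and 0.87 in KO. Aldoa was at 0.01 in WT at 24 h, and Gpi1 was still 0.46 below untreated cells in WT.

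The 5 enzymes of lower glycolysis were all above untreated cells at 24 h. Gapdh, Pgk1, Pgam1, Eno1 and Pkm carry the 3-carbon sugars to pyruvate and yield the ATP of the pathway. At 4 h, 4 of 5 fell in each genotype, Gapdh by 0.80, Pgam1 by 0.73, Eno1 by 1.08 and Pkm by 1.28 in WT on the log2 scale. Pgk1 stood at 0.01 in WT (adjusted p = 0.984) and at 0.09 in KO. At 24 h all 5 were above untreated cells in both genotypes, Pgk1 the most, by 1.67 in WT (3.17-fold, adjusted p = 1.97e-07) and 1.73 in KO. The others rose to 0.52 (Gapdh), 0.44 (Pgam1), 0.38 (Eno1) and 0.55 (Pkm) in WT. All 7 probes of Gapdh gave the same order of changes. Gapdh, often used as a reference gene, therefore differed between 4 h and 24 h by 1.32 in WT (2.5-fold) and 1.24 in KO.

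The 3 lactate genes followed 3 different courses. Slc16a3, which encodes MCT4, the carrier that exports lactate, was at 11.20 and 11.43 in untreated WT cells, 11.76 and 11.65 after 1 h, 9.55 and 9.69 after 4 h, and 13.77 and 13.66 after 24 h. It fell 3.25-fold by 4 h (adjusted p = 3.33e-06) and then rose 17.1-fold from 4 h to 24 h (4.10 ± 0.18 log2, SE, n = 2, adjusted p = 3.34e-09). In KO it was at 11.53 and 11.22, 11.72 and 11.73, 10.16 and 9.50, and 13.68 and 13.80, a 2.92-fold fall and a 15-fold rise. The 4 h and 24 h samples overlapped with no other time in either genotype. Ldha, the lactate dehydrogenase subunit that favors lactate production, was at 15.70 and 15.75, 15.56 and 15.48, 15.66 and 15.74, and 16.84 and 16.56 in WT, and at 15.73 and 15.59, 15.41 and 15.31, 15.49 and 15.69, and 16.54 and 16.86 in KO. Only the 24 h samples stood above the rest, 1.96-fold in WT (adjusted p = 4.4e-05) and 2.06-fold in KO. Ldhb, the subunit that favors the conversion of lactate to pyruvate, was at 13.06 and 12.65, 12.78 and 12.24, 10.96 and 10.61, and 7.45 and 7.28 in WT. Its 24 h level was 44.8-fold below untreated cells (-5.49 ± 0.18 log2, adjusted p = 1.31e-10), and 4.19-fold below already at 4 h. In KO it was at 12.60 and 12.68, 12.28 and 12.42, 10.69 and 10.46, and 7.17 and 7.29, a 42.5-fold fall at 24 h. Ldhb had the largest fall and Acod1 the largest rise among the members.

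Between glycolysis and the TCA cycle, Pdk1, the kinase that turns off pyruvate dehydrogenase, fell by 1.29 at 4 h in WT and was back at 0.09 at 24 h, with a fall of 1.36 in KO. Pdha1, the catalytic subunit of pyruvate dehydrogenase, fell by 0.41 at 4 h in WT (adjusted p = 0.0154) and by 0.58 in KO.

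**Figure D3:**
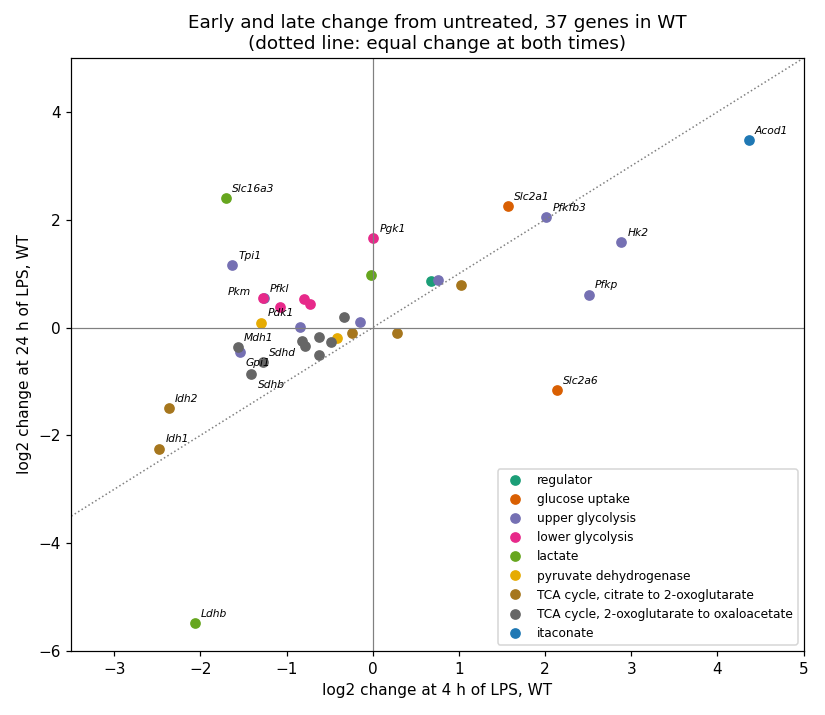
Log2 change from untreated cells after 4 h (x axis) against that after 24 h (y axis) for each of the 37 genes in WT, colored by role, with a dotted line where both are equal. Genes above the line were higher at 24 h than at 4 h, and Slc16a3 and Tpi1 lie at the upper left, below untreated cells at 4 h and above them at 24 h. Both axes share the untreated samples.

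Of the 14 TCA cycle genes, 1 rose and 11 fell at 4 h in WT, and 1 rose and 12 fell in KO. At 24 h 1 was higher and 6 lower in WT, and 1 higher and 5 lower in KO. Of the features well above background, 33.9% fell at 4 h and 31.1% at 24 h in WT, so the 24 h count was not far from the background. Idh1, the cytosolic isocitrate dehydrogenase, was at 10.65 and 10.01, 10.34 and 9.61, 8.09 and 7.61, and 7.99 and 8.18 in WT, and at 9.99 and 10.18, 9.42 and 9.94, 7.37 and 7.36, and 7.61 and 7.77 in KO. The 4 h and 24 h samples all lay below the untreated and 1 h ones. The fall was 5.57-fold at 4 h (adjusted p = 3.65e-06) and 4.75-fold at 24 h in WT, and 6.58-fold and 5.25-fold in KO. Idh2, the NADP-dependent mitochondrial form, was at 13.49 and 13.51, 13.23 and 13.07, 11.25 and 11.02, and 11.89 and 12.11 in WT, and at 13.40 and 13.22, 12.95 and 12.86, 10.84 and 10.75, and 11.64 and 11.63 in KO. It fell 5.15-fold in WT (-2.37 ± 0.11 log2, SE, n = 2, adjusted p = 1.51e-09) and 5.71-fold in KO at 4 h, recovered in part, and was still 2.83-fold and 3.2-fold lower at 24 h. Idh3a, a subunit of the NAD-dependent isocitrate dehydrogenase of the cycle itself, moved the other way, up by 1.02 at 4 h (2.03-fold, adjusted p = 4.53e-06) and 0.80 at 24 h in WT, and by 1.03 and 0.73 in KO. The isocitrate dehydrogenases thus did not move as a unit. Cs, citrate synthase, was at 0.28 at 4 h in WT (adjusted p = 0.125) and at 0.06 in KO. Aco1, the cytosolic aconitase that also acts as an iron sensor, was at 6.79 and 6.67, 6.86 and 6.89, 6.66 and 6.31, and 6.55 and 6.71 in WT, which passed at no time. In KO it was at 7.03 and 6.73, 6.88 and 6.70, 6.59 and 6.41, and 6.76 and 6.61, and at 4 h it was not well above background in either sample, at least 1.30-fold lower than in untreated cells (adjusted p = 0.0451), a call that was lost with either 1 h or 24 h array left out.

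From 2-oxoglutarate on, all 9 genes, Ogdh, Suclg1, Sdha, Sdhb, Sdhc, Sdhd, Fh1, Mdh1 and Mdh2, fell at 4 h in both genotypes. The 4 subunits of succinate dehydrogenase, which is both a TCA cycle enzyme and complex II of the respiratory chain, fell by 0.63 (Sdha), 1.41 (Sdhb), 0.78 (Sdhc) and 1.28 (Sdhd) in WT on the log2 scale. Sdha was at 13.58 and 13.63, 13.36 and 13.48, 12.89 and 13.07, and 13.02 and 13.17 in WT, and at 13.56 and 13.61, 13.57 and 13.49, 12.97 and 12.79, and 13.04 and 13.15 in KO. All 4 h and 24 h samples lay below the untreated samples of the same genotype, and the fall at 24 h was 0.51 in WT (1.42-fold, adjusted p = 0.00179) and 0.49 in KO, neither of which passed with loess alone. Mdh1, the cytosolic malate dehydrogenase, was at 13.59 and 13.74, 13.35 and 13.49, 12.02 and 12.18, and 13.18 and 13.41 in WT, and at 13.66 and 13.48, 13.56 and 13.37, 11.96 and 11.93, and 13.28 and 13.32 in KO. It fell 2.96-fold in WT and 3.08-fold in KO at 4 h and then rose 2.29-fold in WT. Its 24 h fall of 0.37 in WT (adjusted p = 0.027) was 0.018 in the other direction with loess alone, and it no longer passed without untreated replicate 2 (-0.29) or without 24 h replicate 1 (-0.26). Suclg1 fell by 0.82, Ogdh by 0.49, Fh1, fumarase, by 0.62, and Mdh2 by 0.34 at 4 h in WT on the log2 scale.

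Acod1 led the response. It converts cis-aconitate to itaconate. Its log2 intensity was 12.68 and 13.36 in untreated WT cells, 17.19 and 17.17 after 1 h, 17.32 and 17.44 after 4 h, and 16.37 and 16.63 after 24 h. Every LPS sample was more than 3 log2 units above both untreated samples. The rise was 17.9-fold at 1 h (4.16 ± 0.17 log2, SE, n = 2, adjusted p = 2.73e-09), 20.5-fold at 4 h and 11.1-fold at 24 h, with a fall of 0.88 from 4 h to 24 h. KO had 13.45 and 13.48, 17.05 and 16.96, 17.40 and 17.36, and 16.65 and 16.61, which is 11.7-fold at 1 h, 15.1-fold at 4 h and 8.98-fold at 24 h. At 1 h, Acod1 and Slc2a6 rose in both genotypes, Slc2a1 passed in WT, and Idh2 and Sdhc were lower than in untreated cells in KO, with changes of -0.40 and -0.44 (log2), neither of which passed with loess alone or when any one of the untreated, 1 h or 24 h arrays was left out.

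Read over time, 18 of the 37 genes fell at 4 h and then rose between 4 h and 24 h in WT, against 9.45% of all features tested and 17.7% of those well above background throughout. The same 18 did so in KO. They were Gpi1, Pfkl, Aldoa, Tpi1, Gapdh, Pgam1, Eno1, Pkm, Slc16a3, Pdk1, Idh2, Suclg1, Sdhb, Sdhc, Sdhd, Fh1, Mdh1 and Mdh2. Of these, 7 ended above untreated cells in both genotypes, Pfkl, Tpi1, Gapdh, Pgam1, Eno1, Pkm and Slc16a3, against 2.81% of the features well above background in WT. The 7 are all glycolytic enzymes except Slc16a3, and none is a TCA cycle gene. With untreated replicate 2 left out, 4 members were in this class in WT, and with 24 h replicate 1 left out, 3 were. The reverse course, up at 4 h and down afterwards, was followed by 4 members in both genotypes, Slc2a6, Hk2, Pfkp and Acod1, against 9.01% of all features and 17.4% of those well above background, so this course was no more frequent among the members.

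To ask whether the loss of FURIN shifts these genes, KO and WT were compared within arrays as log2 KO/WT ratios, tested with limma. That fit takes the 8 arrays as independent. The difference between the replicates was, however, correlated across genes between the times (r from 0.475 to 0.679). The SE and p-values of the means over the times, and their intervals, may therefore be too small. No member passed at any time, in the mean over the 4 times, or in the difference of the LPS response between the genotypes, whereas with the replicate number as a block 8 passed for the mean. Of all 36947 features, 0% passed in untreated cells and at 1 h, 0.0135% at 4 h, 0.0244% at 24 h and 0.566% for the mean. For the difference in response 0% passed at each of the 3 LPS times. At an unadjusted p under 0.05 there were 3 members in untreated cells, 6 at 1 h, 4 at 4 h, 1 at 24 h and 10 for the mean. Of the 16434 features well above background in all channels, 1754, 1556, 1046, 891 and 3166 did so. The median ratio of the 37 genes was -0.06, -0.14, -0.07 and -0.00 at the 4 times. The methods' t-test, on the same values and at an unadjusted p under 0.05, called 2 members in untreated cells, 4 at 1 h and 0 at 4 h and 24 h, against 1694, 1754, 1128 and 1514 of all features, and called 0 members after Benjamini-Hochberg adjustment. 

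Idh2 was the member closest to the threshold. Its log2 KO/WT ratio was -0.09 and -0.29 in untreated cells, -0.28 and -0.21 after 1 h, -0.41 and -0.27 after 4 h, and -0.25 and -0.48 after 24 h. It was lower in KO on all 8 arrays, which held for 1 of the 37 members, for 1.5% of all features and for 2.74% of those well above background throughout, so that the count is at the background, and 0 members were higher on all 8 (1.36% of all features). The mean was -0.29 ± 0.05 (SE, 8 arrays, 95% interval -0.40 to -0.17, adjusted p = 0.0545). With the replicate number as a block the adjusted p was 0.00612. The Idh2 difference passed the threshold, in the same direction, with Aquantile scaling, with loess alone and in the log2 ratios that the authors deposited.

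The 3 members with the largest mean ratio were Slc2a1, Idh1 and Hk2. Slc2a1 had ratios of 1.14 and 0.04 in untreated cells, 0.93 and -0.01 after 1 h, 0.82 and -0.00 after 4 h, and 0.23 and 0.05 after 24 h. The excess in KO was seen on the arrays of replicate 1, and the mean of 0.40 ± 0.15 had an adjusted p of 0.363 (95% interval 0.06 to 0.74). Idh1 had -0.66 and 0.17, -0.92 and 0.34, -0.72 and -0.25, and -0.38 and -0.41, with a mean of -0.35 (95% interval -0.67 to -0.03, adjusted p = 0.403). Hk2 had 0.76 and -0.11, 0.26 and 0.21, 0.37 and 0.71, and 0.06 and 0.17, with a mean of 0.30 (95% interval 0.10 to 0.51, adjusted p = 0.227), and was positive on 7 of 8 arrays. For Slc2a1 and Idh1 the difference between the replicates at 1 h exceeded the mean difference between the genotypes.

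For Hif1a the ratios were -0.14 and 0.76, -0.34 and 0.60, 0.19 and 0.78, and -0.29 and 0.34, higher in KO on every array of replicate 2 and lower in KO on 3 of 4 arrays of replicate 1. Its mean of 0.24 had an adjusted p of 0.65. Pfkfb3 had ratios of -1.03 and 1.14 at 4 h and a mean of 0.20 (95% interval -0.31 to 0.71). Acod1 had 0.77 and 0.12 in untreated cells, -0.14 and -0.20 after 1 h, 0.08 and -0.08 after 4 h, and 0.28 and -0.01 after 24 h. Its baseline difference of 0.44 did not pass (adjusted p = 0.617), its mean was 0.10 (95% interval -0.07 to 0.27), and its 1 h rise in KO less that in WT was -0.61 ± 0.21 (log2, 95% interval -1.10 to -0.13, adjusted p = 1). The 95% interval of the mean was -0.24 to 0.07 for Ldha and -0.13 to 0.12 for Sdha.

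The 5 enzymes of lower glycolysis had mean ratios from -0.24 (Pgam1, adjusted p = 0.134) to -0.13, none of which passed. In upper glycolysis, Pfkl was at -0.23, Aldoa at -0.20, Tpi1 at -0.19, Gpi1 at -0.17 and Hk3 at -0.11. Above 0 were Hk1 at 0.14, Pfkp at 0.07, Hk2 at 0.30 and Pfkfb3 at 0.20, and none of these passed. With the replicate number as a block, which also takes out the dye, 8 members passed for the mean, against 5.99% of all features and 11.3% of those well above background throughout. Higher in KO were Hif1a and Slc2a1, and lower were Pfkl, Aldoa, Pgam1, Eno1, Idh1 and Idh2. In this fit the difference between the replicates is removed and the error comes from the spread over the times, so that Hif1a passed with 3 of 4 negative ratios in replicate 1 and Slc2a1 with ratios near 0 throughout replicate 2. The replicate block also moved the 1 h counts under LPS, to 9 members in WT and 10 in KO, where 22.8% of the features well above background passed in each genotype.

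**Figure D4:**
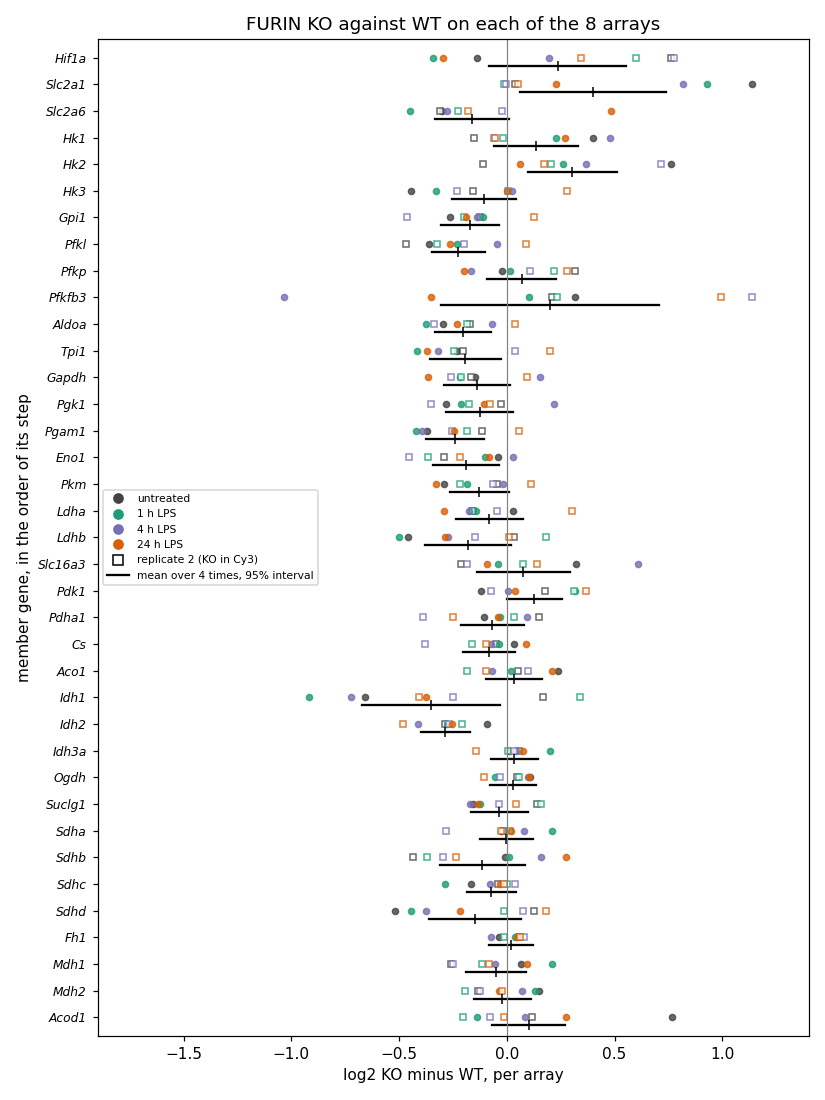
Log2 KO minus WT signal (x axis) of each of the 37 genes (y axis, in the order of their steps) on each of the 8 arrays, colored by time, with circles for replicate 1 and open squares for replicate 2, and with the mean over the 4 times and its 95% interval as a black bar. The 8 Idh2 values all lie left of 0, and those of Slc2a1 and Hif1a separate by replicate.

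The pathways hold further genes, of which 79 were measured and 78 tested under LPS. In WT, 4 rose and 7 fell at 1 h, 10 rose and 38 fell at 4 h, 13 rose and 29 fell at 24 h, and 32 rose and 14 fell from 4 h to 24 h. Of the features well above background, as given above, 28.7% rose and 33.9% fell at 4 h, 23.9% and 31.1% at 24 h, and 26.2% and 28.3% from 4 h to 24 h, and the counts by list that follow are descriptions to be read against the same shares. In KO, 11 rose and 40 fell at 4 h and 11 rose and 28 fell at 24 h. Of 20 other glycolysis genes, 2 rose and 9 fell at 4 h in WT. Slc2a8, a glucose transporter of intracellular membranes, was at 12.45 and 12.29 in untreated cells and at 9.36 and 8.86 at 4 h, a 9.56-fold fall (adjusted p = 5.54e-09), and Pfkfb4, a relative of Pfkfb3, fell by 2.36 on the log2 scale. Slc2a8 and Pfkfb4 thus moved opposite to Slc2a1 and Pfkfb3. Of 21 other genes of pyruvate entry and the TCA cycle, 2 rose and 8 fell. Pdk2, a second pyruvate dehydrogenase kinase, went from 9.19 and 9.28 to 6.36 and 6.18 at 4 h, where it was not well above background, at least 7.80-fold lower. Sdhaf4, an assembly factor of succinate dehydrogenase, fell by 1.63 on the log2 scale.

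In the pentose phosphate pathway, which branches from glycolysis and makes NADPH, 1 of 8 genes rose and 5 fell at 4 h in WT. Shpk, sedoheptulokinase, was at least 2.32-fold lower, and G6pdx, the first enzyme of the pathway, fell by 1.11 on the log2 scale. Of 16 other targets and regulators of hypoxia-inducible factor, 3 rose and 8 fell at 4 h, and 7 rose and 4 fell at 24 h. Epas1, which encodes HIF-2α, was 22.5-fold lower at 24 h, and Adm, adrenomedullin, was 12.9-fold higher at 1 h. Of 13 genes of side steps, such as glutamine metabolism and citrate use, 2 rose and 8 fell. Glul, glutamine synthetase, was 5.32-fold lower at 4 h. One of the 79 differed between KO and WT in the mean, Hilpda, a lipid droplet protein induced by hypoxia, named here after its values were seen. For the mean, 0.566% of all features passed and 1.11% of those well above background, so 1 of 79 is near the background. The Hilpda ratio was 0.83 and 0.35, 0.30 and 0.45, 1.23 and 1.20, and 0.26 and -0.15, with a mean of 0.56 ± 0.07 (adjusted p = 0.0210). With the replicate number as a block, 15 of the 79 passed for the mean, 3 higher and 12 lower in KO, against 5.99% of all features and 11.3% of those well above background.

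Markers of other cells were read in the same samples. The summed intensity of 7 macrophage markers ranged from 531647 to 628184 in untreated WT cells and from 252724 to 269557 at 24 h, and from 447764 to 451493 and 160597 to 180762 in KO. All 7 were well above background in every sample. The 5 markers of large peritoneal macrophages went from a sum of 54482 to 72965 in untreated WT cells to 17826 to 22368 at 4 h and 8760 to 10680 at 24 h. The 6 B cell markers were well above background in all samples, with sums of 64984 to 84522 in untreated WT cells and 36122 to 43301 at 4 h, and of 72674 to 105573 and 27582 to 41907 in KO. Of 5 neutrophil markers measured, S100a9, Mpo and Ngp were not well above background in any group, and the summed intensity was 4313 to 4422 in untreated WT cells and 22701 to 60234 at 24 h, where S100a8 was 3.77 above untreated cells (log2) and Elane, the other marker detected, 0.87 below them, so the higher sum is that of S100a8. Of the 6 T and NK cell markers Ncr1 was not well above background in any group, and the sum was 11032 to 19536 in untreated WT cells and 5971 to 9523 at 4 h. All 6 mast cell markers were well above background, with sums of 8151 to 11446 in untreated WT cells, 10574 to 12951 at 4 h and 1837 to 3175 at 24 h, and mesothelial cell and fibroblast markers stayed near background, with sums of 517 to 704. The macrophage and B cell sums were thus lower at 4 h than in untreated cells, as were most members. Their part in the changes of the 37 genes was not tested. Between KO and WT, Csf1r (-0.40, adjusted p = 0.018) and Lyz2 (-1.16, adjusted p = 0.00034) were lower in KO in the mean and Icam2 (0.34, adjusted p = 0.027) was higher. The other 5 macrophage markers ranged from -0.24 (Mertk) to 0.64 (Fcgr1) and the other 4 of large peritoneal macrophages from -0.29 (Timd4) to 0.74 (Selp), and none of these passed. The 6 mast cell markers had means from 0.05 to 0.60 (log2 KO/WT), of which none passed. At 24 h the sum over the large peritoneal macrophage markers was 13239 to 14860 in KO, above the WT range. Their part in the ratios above was not tested.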

How the data were processed

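Macrophage RNA of both genotypes was hybridized on 8 Agilent 2-colour arrays of 62976 spots, 2 per time. The authors extracted the spot intensities with Agilent Feature Extraction 10.7.3 (per the submitters' processing notes) and deposited the raw median intensity of each channel. They also deposited log2 ratios of Cy5 to Cy3, normalized by loess and quantile, whose column medians lay near 0 and which served only as an alternative.

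In this re-analysis the intensities went through limma 3.58.1 (R 4.3.3), with normexp for the background (offset 50), loess within arrays and quantile normalization between arrays. Control spots and outlier spots had weight 0 in loess and were left out. Of 55681 gene probes, 27509 were named through RefSeq accessions, for 20887 genes, and the probe with the highest mean stood for a gene. A feature was tested if its log2 intensity averaged 6 or more, which held for 36947 of 37018. Log2 KO/WT ratios were fitted with lmFit and eBayes, 1 coefficient per time. LPS changes within a genotype came from the separate-channel fit (statmod 1.5.0, within-spot correlation 0.116) on 36927. P-values were adjusted by Benjamini-Hochberg at 0.05. The number of arrays limits the precision, and from 43.8% to 51.3% of the gene probes were well above background per channel. "At least" folds compare the measured group with, per array, the higher of the dim gene's own signal and the lowest signal well above background.

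The members and lists were chosen with earlier results of these data known. Per-sample values are given for the 6 members with the largest rise and the 6 with the largest fall in WT, the 3 with the largest mean KO/WT ratio, any that passed between the genotypes, and Acod1, Hif1a, Slc2a1, Hk2, Pfkfb3, Ldha, Idh1, Sdha and Aco1. Of the other pathway genes, up to 2 per list with the largest change in WT are named. One gene that this rule selects is not reported here. The fits were tested on simulated data. Alternatives were a replicate block, the software's processed signals, Aquantile, loess alone, an offset of 16, other filters, the mean of a gene's probes, a within-spot correlation of 0, the methods' t-test, the deposited ratios and each array left out. Upstream sequences are RefSeq's on GRCm38.p6. No other coordinates are given, since the array annotation is on another build.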

Additional observations from a re-analysis of the deposited data

How the results depend on the processing

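With a replicate block, and so with the dye removed too, 8 members passed for the mean KO/WT ratio, against 0 without it, and the 1 h counts were 9 in WT and 10 in KO, against 3 and 4, where 22.8% of the features well above background passed in each genotype. The replicate numbers are too few to establish a pairing. The difference between the replicates in KO/WT was correlated across genes between the times, with r from 0.475 to 0.679 over 6 pairs of times, and genes are not independent replicates. For the mean KO/WT ratio 1 member, Idh2, passed with Aquantile scaling, with loess alone and in the deposited ratios, which gives 1, 1 and 1. The 1 h count in WT was 5 with the software's processed signals and 5 with probes well above background, and in KO it was 2 with loess alone. With each array left out in turn there were 2 to 4 members at 1 h in WT, 2 to 3 in KO (2 when any one of the untreated, 1 h or 24 h arrays was omitted), and 3 to 7 of the members in WT that fell and then rose to above untreated cells, where the lowest count was without 24 h replicate 1. The changes at 24 h of Mdh1 in WT and of Ogdh in KO were 0.018 and 0.018 with loess alone, against falls otherwise. The cause was not tested. The processed signals moved the median of all features by -0.10 at 4 h and -0.13 at 24 h in WT. Recomputed under 18 settings were 183 single values, the called LPS changes and the mean KO/WT ratios that were largest or passed with the block. Of 3110 recomputed values, 2981 kept direction and side of the threshold, 116 no longer passed, 11 came to pass and 2 changed direction. The number of arrays limits every interval.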
